A study of Mus musculus with 4 samples.

Results

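The adipocyte genes Cfd, Adipoq, Plin1, Cidea, Fabp4, Ucp1, Cox8b and Car3 were followed across spatial transcriptomic sections of normal and ischemic mouse kidney. They are 8 of the 32285 genes counted, and they were picked by name as white and brown fat genes after their counts had been seen to be low in ischemic sections, so the difference between conditions is given as a description without a test. All sections came from the left kidney of male WT C57BL/6J mice aged 7 to 8 weeks. Normal control kidneys (2 sections) were compared with kidneys taken 24 h after clamps had been kept on both renal pedicles for 30 min (ischemic reperfusion, 2 sections). Kidneys of both groups had their capsule removed before freezing, and 10 µm sections were placed on 4 capture areas of 1 Visium slide, where each spot of the array collects polyadenylated RNA from the several cells above it. The labels do not say which mouse each section came from, and the study describes technical replicates of each mouse, so p-values measure the spread between sections, which may be technical. The labels state no sham operation for the normal kidneys, so the dissection of the pedicles and the ischemia cannot be told apart.

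Adipocytes store triglyceride in lipid droplets and secrete hormones. White adipocytes hold a single large droplet and release its fatty acids to other organs, whereas brown adipocytes hold many small droplets and burn fatty acids in mitochondria uncoupled by UCP1 to make heat. Both kinds lie around the kidney and in its sinus, next to the renal pelvis and the vessels of the hilum, and neither is a constituent of the tubular parenchyma.

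The 4 sections held between 25957128 and 44528078 unique molecular identifiers (UMIs, 1 per captured RNA molecule) over 2401 to 2682 tissue spots each. Normal section 1 was the deepest, with a median of 16162 UMIs per spot against 8656 in normal section 2, 11851 in ischemic section 1 and 8883 in ischemic section 2. Levels are given as CPM, counts per 1000000 UMIs of the section or of the spots named, and 3 counts, the most that a count of 0 allows here, are worth 0.0674 to 0.116 CPM of a whole section. Intervals are 95% exact intervals and cover counting error only.

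Of the secreted products, Cfd (adipsin, complement factor D, the protease that starts the alternative complement pathway) was the most abundant of the 7 members other than Fabp4 in the normal sections. It had 9737 and 2870 counts in normal sections 1 and 2 and 9 and 8 counts in ischemic sections 1 and 2, which is 219 and 104 CPM against 0.29 and 0.308 CPM. Adipoq (adiponectin, the insulin-sensitising hormone made almost only by adipocytes) had 682 and 210 counts in the normal sections, against 3 in each ischemic section. Both genes were far higher in each normal section than in either ischemic section, and the normal sections themselves differed, with normal section 1 above normal section 2. In pooled counts per UMI the normal sections exceeded the ischemic sections 586-fold for Cfd (counting interval 366 to 1006) and 117-fold for Adipoq (53.7 to 321). Without normal section 1 the TMM-scaled log2 difference, ischemic minus normal, went from -9.49 to -8.58 for Cfd and from -7.17 to -6.31 for Adipoq.

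Of the lipid droplet proteins, Plin1 (perilipin, the coat that gates lipolysis) had 114 and 35 counts in the normal sections, against 10 and 7 in the ischemic sections, a ratio of 6.92 (4.18 to 12.2). Cidea (on chromosome 18 of GRCm38), which drives growth and fusion of droplets and is most abundant in brown fat, had 461 and 127 counts against 15 and 7, a ratio of 21.1 (13.8 to 33.9). Without normal section 1 the TMM-scaled log2 difference went from -3.09 to -2.22 for Plin1 and from -4.70 to -3.71 for Cidea. Fabp4, the fatty acid carrier of adipocytes that capillary endothelium and macrophages also make, had 14043, 7795, 7007 and 5665 counts in the 2 normal and 2 ischemic sections. At 315 and 282 CPM against 226 and 218 CPM, Fabp4 was lower but not lost in ischemic sections, with a ratio of 1.36 (1.33 to 1.39), and it was detected in 84.2% and 74.6% of ischemic spots.

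Of the mitochondrial members, Ucp1, the uncoupling protein that defines brown and beige adipocytes, had 273 and 64 counts in the normal sections, against 2 and 4 in the ischemic sections, a ratio of 44.4 (20.2 to 122). Cox8b, a cytochrome c oxidase subunit of brown fat and striated muscle, had 441 and 165 counts against 0 and 1, a ratio of 479 whose counting interval of 85.6 to 18935 is wide because it rests on 1 ischemic count. Car3 (carbonic anhydrase 3, a cytosolic enzyme abundant in adipocytes, muscle and liver) had 5233 and 1993 counts against 94 and 80, or 118 and 72.1 CPM against 3.03 and 3.08 CPM, a ratio of 32.8 (28.2 to 38.3). Without normal section 1 the TMM-scaled log2 difference went from -5.77 to -4.60 for Ucp1, from -9.20 to -8.55 for Cox8b and from -5.33 to -4.70 for Car3. Without ischemic section 2 that of Ucp1 went to -6.47, and without ischemic section 1 that of Cox8b went to -8.07. For all 8 genes the lowest normal section lay above the highest ischemic section, a gap they were chosen for. The share of all genes with such a gap is not given here, so this is no result about the members. In the edgeR fit across 15305 genes 29.7% of all genes were called lower in ischemic sections, and all 8 members were among them, which their choice had fixed.

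**Figure D1:**
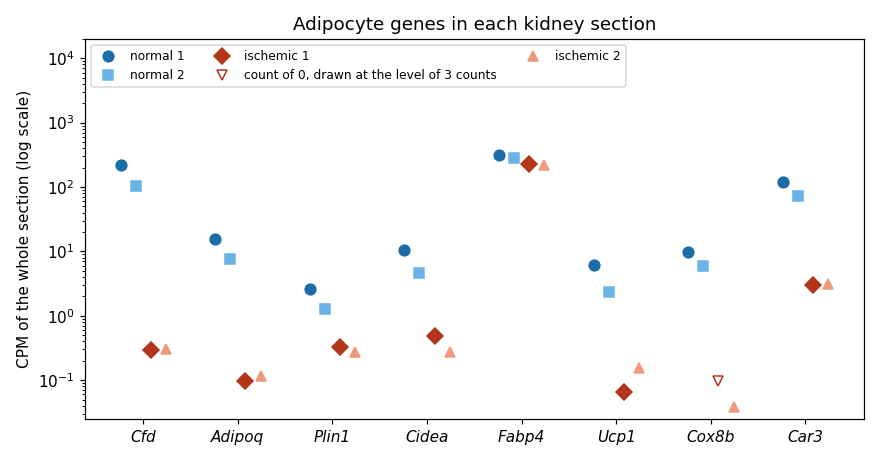
Level of each gene in each section, as CPM of the whole section on a log axis, with 1 point per section and no error bars. The ischemic sections lie below both normal sections for every gene, by little for Fabp4 (226 and 218 CPM against 315 and 282 CPM), and the open triangle marks the count of 0 of Cox8b in ischemic section 1, drawn at the level of 3 counts.

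Scaling by TMM, which corrects for a shift of most genes, in place of total UMIs moved the log2 difference between conditions of all genes by 0.27, and the members kept their direction under both. Summed tissue counts do not distinguish fewer fat cells in the section from less of each RNA per cell, and for the members these cannot be told apart.

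In the mouse genome (GRCm38, GENCODE annotation) Cfd lies at chr10:79890853-79892655, Adipoq at chr16:23146536-23158028, Cox8b at chr7:140898945-140900446, Plin1 at chr7:79720218-79732903, Ucp1 at chr8:83290352-83298452, Car3 at chr3:14863512-14872523 and Fabp4 at chr3:10204088-10208576. The start regions of 5 of the 8 were read from RefSeq (GRCm38.p6), 250 bases before to 50 after the start site. Those of Adipoq, Plin1 and Ucp1 are shown because these genes stand for the secreted, the droplet and the thermogenic side of the fat programme that appeared together in the same spots. Capitals mark matches, on either strand, to TTNNGNAA, the core of sites of the adipogenic C/EBP factors, or to AGGTCA, the half-site of nuclear receptors such as PPARγ.
Adipoq, chr16:23146286-23146585, plus strand: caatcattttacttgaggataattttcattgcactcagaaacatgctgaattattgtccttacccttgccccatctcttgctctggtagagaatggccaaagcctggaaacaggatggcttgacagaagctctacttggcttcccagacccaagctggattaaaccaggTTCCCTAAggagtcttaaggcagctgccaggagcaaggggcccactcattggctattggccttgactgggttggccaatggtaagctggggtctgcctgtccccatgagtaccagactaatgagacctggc
Plin1, chr7:79732727-79733026, minus strand: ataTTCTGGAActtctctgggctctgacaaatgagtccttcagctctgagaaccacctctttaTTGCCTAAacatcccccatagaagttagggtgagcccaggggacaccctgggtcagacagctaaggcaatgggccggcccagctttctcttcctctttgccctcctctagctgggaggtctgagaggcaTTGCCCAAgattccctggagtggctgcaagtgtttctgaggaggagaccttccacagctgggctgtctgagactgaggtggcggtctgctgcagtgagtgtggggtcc
Ucp1, chr8:83290098-83290397, plus strand: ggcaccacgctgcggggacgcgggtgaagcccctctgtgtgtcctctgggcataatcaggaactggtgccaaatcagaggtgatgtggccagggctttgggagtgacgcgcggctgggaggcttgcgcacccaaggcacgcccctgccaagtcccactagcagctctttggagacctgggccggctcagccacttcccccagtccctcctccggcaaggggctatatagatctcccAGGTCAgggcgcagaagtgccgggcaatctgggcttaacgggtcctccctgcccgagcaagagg
Adipoq held 1 C/EBP-type match at position -81 from the start site and Plin1 held 3, at -247, -187 and -58, where 40.7% of all 32851 promoters of the same length hold at least 1. Ucp1 held an AGGTCA at -14, found in 16.3% of promoters, and neither Cfd nor Cox8b held either motif. The direct repeat to which PPARγ binds with RXR, AGGNCA followed by N and again AGGNCA, overlaps the half-site where its letters allow and was in none of the 5 windows and in 0.381% of all promoters. These are matches of letters, with no binding measured here.

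Within the normal sections 6 of the 8 members were concentrated in few spots. The other members were more widely spread, with Fabp4 in 78.2% and 70.2% and Car3 in 28.1% and 19.8% of the spots of normal sections 1 and 2. A fat-rich spot was defined as one with at least 10 UMIs summed over 6 members (without Fabp4 and Car3, which were also found away from the patches), a limit set after the counts had been seen. There were 90 fat-rich spots of 2616 in normal section 1, 35 of 2682 in normal section 2 and 0 in each ischemic section. These spots held 97.1% and 93.3% of the summed counts of the 6 genes in normal sections 1 and 2. The richest spot held 737 UMIs of the 6 genes in normal section 1 and 689 in normal section 2, while no ischemic spot held more than 3.

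**Figure D2:**
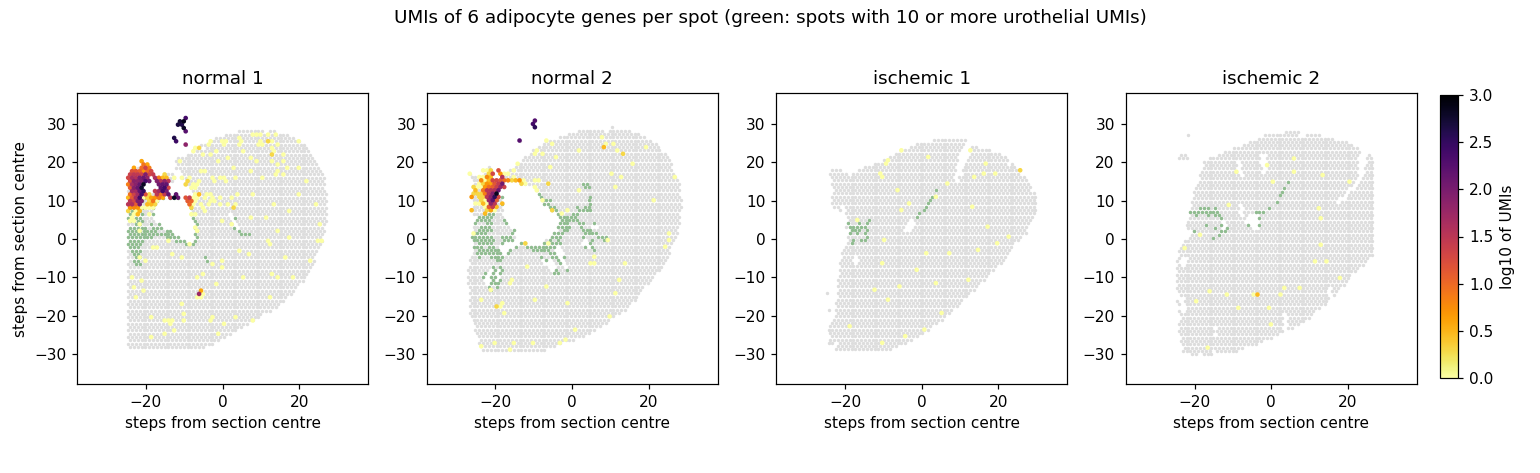
Position of the tissue spots of each section on the array, in steps from the section's centre, coloured by the log10 of the summed UMIs of Cfd, Adipoq, Cox8b, Ucp1, Cidea and Plin1. Grey spots hold none of these genes and no more than 9 urothelial UMIs, and green spots hold at least 10 urothelial UMIs. Dark spots form a large patch at the upper left of each normal section and a small island of tissue above it, and the ischemic sections hold only scattered spots of 1 to 3 UMIs.

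The fat-rich spots formed patches of adjacent spots. Normal section 1 had a large patch of 74 spots, a small patch of 7 spots and another of 5 spots, and normal section 2 had a large patch of 29 spots and a small patch of 3 spots. The small patch of each normal section was a whole piece of tissue of its own, separated from the kidney by spots without tissue, whereas the other 3 patches belonged to the main piece. Of the large patch in normal section 1, 6 spots lay at the frame of the capture area, so the patch may have run beyond it. Both normal sections showed this arrangement of a large attached and a small detached patch on the same side of the kidney.

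The detached patches exceeded the large patches in every member. Cfd reached 25067 CPM in the small patch of normal section 1 and 19486 CPM in that of normal section 2, against 8795 and 7496 CPM in the large patches. Adipoq stood at 1917 and 1708 CPM in the small against 574 and 539 CPM in the large patches. Fabp4 stood at 30282 and 30869 CPM in the small against 6484 and 6430 CPM in the large patches. White and brown fat genes alike were thus more concentrated in the small patches.

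The patches also differed in the share of brown fat genes. Ucp1 stood at 1634 and 1607 CPM in the small patches and at 127 and 55.1 CPM in the large ones. Of the summed Ucp1 and Adipoq counts, Ucp1 made up 46% (40.7 to 51.4) and 48.5% (38.3 to 58.7) in the small patches of normal sections 1 and 2. In the large patches it made up 18.1% (14.8 to 21.8) and 9.27% (5.16 to 15.1). The intervals of small and large patches do not overlap in either section, but they cover counting error only and leave out the spread between spots. The patches were drawn from the same counts, so no test was made.

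Cidea followed Ucp1 in part, with 0.963 and 0.941 counts per Adipoq count in the small patches and 0.543 and 0.46 in the large ones. Cox8b had 0.784 and 0.961 counts per Adipoq count in the small and 0.587 and 0.708 in the large patches. Cfd and Plin1, which white and brown fat share, kept closer to Adipoq, with 13.1 and 11.4 Cfd counts per Adipoq count in the small and 15.3 and 13.9 in the large patches, and 0.158 and 0.176 Plin1 counts against 0.17 and 0.146. Per Adipoq count, Ucp1 and Cidea thus had wider gaps between patches than Cfd and Plin1. Car3 had 7.15 and 5.25 counts per Adipoq count in the small and 4.27 in both large patches, and Fabp4 had 15.8 and 18.1 against 11.3 and 11.9. The patch of 5 spots in normal section 1 held only 2 Adipoq and 0 Ucp1 counts and could not be placed.

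**Figure D3:**
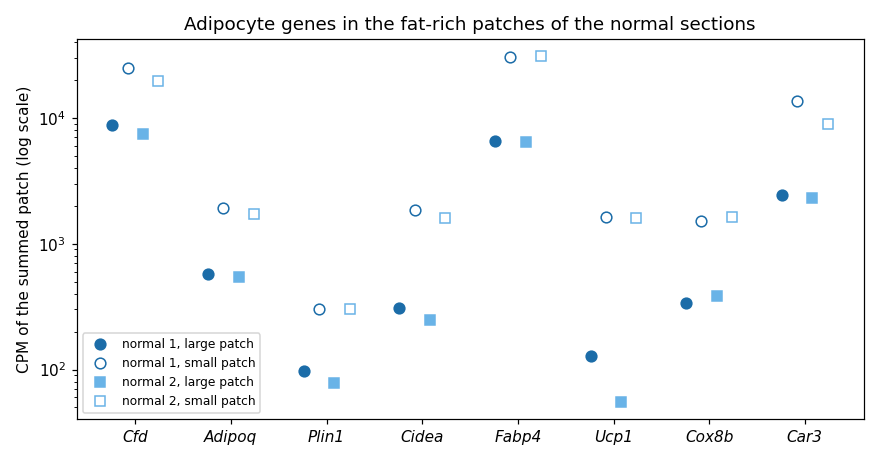
Level of each gene in the large (filled) and small (open) patches of fat-rich spots of normal sections 1 and 2, as CPM of the summed patch on a log axis, with 1 point per patch and no error bars. Every gene was higher in the small than in the large patch of its section, and the gap was widest for Ucp1 (1634 against 127 CPM and 1607 against 55.1 CPM).

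The detached tissue was small but weighed heavily. In normal section 1 the 10 spots outside the main piece held 65.6% of all Ucp1, 48.8% of Cidea, 41.3% of Cox8b, 36.7% of Adipoq, 31.9% of Cfd and 25.6% of Fabp4 counts. In normal section 2 the 4 such spots held 75% of Ucp1, 40.9% of Cidea, 33.3% of Cox8b, 30% of Adipoq, 25.8% of Cfd and 14.1% of Fabp4 counts. Ischemic sections 1 and 2 had 2 and 8 spots outside their main pieces, and these held none of the counts of Cfd, Adipoq, Ucp1, Cidea or Plin1. A few spots of tissue beside the kidney thus held a large share of the fat gene counts of a normal section, and most of those of Ucp1.

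Whether the members lay at the tissue edge was tested, since they were named for their counts by condition and not for their position. Edge spots were tissue spots with an off-tissue neighbour (8.03% to 10.4% of the spots of a section), and counts summed over edge and interior spots of each section were compared with the edgeR quasi-likelihood test with the section as a block. In normal sections 5.51% of the 14638 genes tested were higher at the edge at an adjusted p under 0.05, and all 8 members were among them. Ucp1 had the largest difference, at 53.9 and 15.3 CPM in edge spots of normal sections 1 and 2 against 2.28 and 0.495 CPM in interior spots, a log2 difference of 4.58 ± 0.24 (SE, adjusted p = 1.07e-09). Fabp4 had the smallest, at 1479 and 742 CPM against 222 and 217 CPM, a log2 difference of 2.23 ± 0.13 (adjusted p = 1.82e-09). Both normal sections were higher at the edge than inside for each member. However, only 29 of 90 and 16 of 35 fat-rich spots (32.2% and 45.7%) were edge spots, so most lay inside. More than 5 steps from fat-rich spots, Cfd stood at 2.94 and 5.75 CPM in edge against 2.39 and 1.82 CPM in interior spots. The test does not tell the tissue edge at large from the place of the patches.

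The other 6 lay between these. Cidea differed by 3.83 ± 0.19 on the log2 scale (adjusted p = 2.06e-10), Adipoq by 3.59 ± 0.14 (adjusted p = 3.06e-11) and Cfd by 3.50 ± 0.09 (adjusted p = 2.82e-14). Plin1 differed by 3.49 ± 0.35 (adjusted p = 1.32e-06), Cox8b by 3.48 ± 0.18 (adjusted p = 1.02e-09) and Car3 by 3.07 ± 0.10 (adjusted p = 1.48e-12), all by edgeR. Without normal section 1 Plin1 differed by 4.15. Edge spots held 42% and 43% of the summed counts of the 8 genes in normal sections 1 and 2, against 6.22% and 8.24% in ischemic sections 1 and 2. The ischemic sum was nearly all Fabp4, with 12672 counts against 174 of Car3, the next highest, so unlike mixtures are compared. At the edge of ischemic sections 1 and 2 lay 5.91% and 7.94% of Fabp4 counts and 25.5% and 32.5% of Car3 counts.

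With the detached pieces left out, an alternative chosen after the data had been seen, 7 of the 8 members stayed higher at the edge in the same edgeR test (5.33% of 14608 genes were). Ucp1 was the exception. Its edge level in the main piece was 0 CPM in normal section 1 and 1.19 CPM in normal section 2 against 2.28 and 0.495 CPM inside, so the 2 sections went opposite ways, and its log2 difference turned to -1.18 ± 0.91 (adjusted p = 0.519). Cox8b and Cidea kept differences of 1.43 ± 0.42 (adjusted p = 0.0318) and 1.37 ± 0.44 (adjusted p = 0.049), close to the threshold. Cfd at 2.33 ± 0.14 (adjusted p = 2.48e-10), Plin1 at 2.25 ± 0.48 (adjusted p = 0.00329), Adipoq at 2.14 ± 0.23 (adjusted p = 1.38e-06) and Car3 at 2.00 ± 0.09 (adjusted p = 3.46e-12) kept larger ones. Fabp4 kept 0.89 ± 0.08 (adjusted p = 1.03e-07).

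In ischemic sections, where 9.11% of genes were higher at the edge, Car3 was the only member that was, with 8.82 and 10.4 CPM at the edge against 2.47 and 2.3 CPM inside (log2 difference 2.12 ± 0.31, adjusted p = 9.91e-05 by edgeR). Fabp4 ran the other way there without passing the threshold, at 152 and 181 CPM against 233 and 222 CPM (log2 difference -0.34 ± 0.14, adjusted p = 0.132). The other 6 had at most 2 counts in the edge spots of an ischemic section, too few to place them.

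The fat-rich spots also lay next to the urothelium, the lining of the renal pelvis. Their median distance from a spot with at least 10 UMIs of 6 urothelial genes was 2 steps of the array in normal section 1 and 1 step in normal section 2, against 12 and 8 steps over all tissue spots. Of the fat-rich spots 27 of 90 and 14 of 35 were themselves urothelial by this count. Urothelial genes stood at 202 and 530 CPM in the normal and 35.2 and 64.5 CPM in the ischemic sections, and urothelial spots numbered 146 and 224 against 30 and 38. Thus 5 of the 6 urothelial genes were, like the members, lower in ischemic sections in the edgeR test, as were 29.7% of all genes. The median log2 difference of the 6 was -3.17 against 0.04 over all genes. All 6 were higher at the edge of normal sections, where 5.51% of all genes were. The part that the amount of pelvis in a section has in the members' difference was not tested.

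Markers of the wall around the pelvis and vessels were high in the fat-rich spots as well. The 5 smooth muscle genes stood at 3107 and 2111 CPM there against 106 and 235 CPM in the other spots of normal sections 1 and 2, and the 8 fibroblast genes at 1337 and 2492 CPM against 140 and 252 CPM. As a sum, smooth muscle genes were higher in ischemic than in normal sections, at 326 and 350 CPM against 166 and 257 CPM. The single genes did not move together. By edgeR 3 of 5 were higher, among them Tagln (log2 difference 1.43) and Acta2 (0.45), and 2 lower, Cnn1 (-3.32) and Myh11 (-1.92). Fibroblast genes were at 422 and 435 CPM against 163 and 279 CPM. Of these, 3 of 8 were higher, among them Col3a1 (2.06) and Col1a1 (1.83), and 5 lower, among them Dcn (-2.44) and Mfap5 (-1.79). Over all genes 31% were higher and 29.7% lower in ischemic sections. The 3 mesothelial genes stood at 7.68 and 17.9 CPM in the normal and 6.38 and 10.6 CPM in the ischemic sections, with 1 of the 2 tested lower and Lrrn4 at 0 in every section.

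Genes of skeletal muscle, which shares some of the members, and of the adrenal gland, which lies nearby, were low in the normal sections. The 8 skeletal muscle genes summed to 1.9 to 3.72 CPM of a section and neither of the 2 tested passed the threshold. The 5 adrenal cortex genes summed to 0.427 and 0.795 CPM in the normal sections, against 8.53 and 9.32 CPM in the ischemic sections, with the 1 tested gene, Star, higher in the latter. Star alone had 255 and 241 counts in the ischemic sections, nearly the whole sum. Cyp11b1, Cyp21a1, Cyp11a1 and Mc2r had at most 5 counts each in an ischemic section. The skeletal muscle genes stood at 15.8 and 6.11 CPM in the fat-rich spots against 1.95 and 3.7 CPM in the other spots of normal sections 1 and 2, and Acta1 at 6.78 and 3.05 CPM against 0.0229 and 0.183 CPM, while Myh4 was at 0 in every section. The part of muscle in the levels of Cox8b and Car3 was not tested.

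The members shared spots. Spots with at least 2 of the 7 members other than Fabp4 numbered 164 and 88 in the normal and 2 and 1 in the ischemic sections, and all 7 met in 17 and 5 normal spots. With spots thinned to 2000 UMIs each, so that depth is equal, and the 48, 150, 58 and 105 shallower spots of the 2 normal and 2 ischemic sections left out, spots with at least 2 numbered 88 and 46 in the normal and 0 in the ischemic sections. Of the Adipoq-positive spots 93.9% and 97.4% held another of the 7, against 31% and 21.5% of the Adipoq-negative spots in normal sections 1 and 2. Ucp1 was alike, at 29 of 32 and 9 of 9 spots. Of the 736 and 532 Car3-positive spots 20.5% and 15.6% held another of the 7, against 7.66% and 3.49% of the Car3-negative spots, so most Car3-positive spots held no other member of the 7.

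Across spots of normal section 1 the 21 pairs of the 7 genes had correlations of 0.50 to 0.88 with a median of 0.69, and in normal section 2 of 0.34 to 0.84 with a median of 0.56. In the ischemic sections the median was 0.00, and no pair exceeded 0.06. The spots of a section share its library and differ in depth, and most counts of 6 of the genes lie in 90 and 35 of them, so the correlations are a description of position.

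The genes most like the 7 members across spots, by the lower of the correlations in normal sections 1 and 2, were ranked among 12369 genes. Retn (resistin, an adipocyte hormone of the mouse) came first at 0.83 and 0.68, followed by Cidec (a droplet fusion protein) at 0.78 and 0.60 and Adig (adipogenin, an adipocyte membrane protein) at 0.74 and 0.58. Hp (haptoglobin, a haemoglobin-binding protein of liver and fat), Plin4 (a droplet coat protein), Mrap (the accessory protein of melanocortin receptors), Ifi27l2a (an interferon-induced gene), Aoc3 (an amine oxidase of fat and vessels), Apoc1 (an apolipoprotein) and Igfbp6 (an IGF-binding protein) completed the 10. Retn had 1178 and 354 counts in the normal and 1 and 3 in the ischemic sections. For Fabp4 alone the leading genes were Retn, Cidec, Adig, Ifi27l2a and Hp.

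Of 21 further adipocyte genes on a list of general markers, 19 could be tested between conditions, and 14 were lower and 0 higher in ischemic sections by edgeR. Their median log2 difference was -1.68, against 0.04 over all genes, of which 29.7% were lower. Lipe, Pnpla2, Mgll, Cd36 and Cebpa were not called, at 0.03, -0.11, -0.07, -0.14 and -0.01. The list was chosen with earlier results of these data known. Genes such as Retn and Adrb3 (123 and 44 counts against 1 and 0) passed the filter through the normal sections and could only come out lower. The count is therefore a description and no independent support. At the edge of normal sections 15 of 20 were higher and 0 lower, where 5.51% of all genes were higher and 5.12% lower. The median log2 difference of the 20 was 1.67 against -0.02 over all genes. Cidec was higher by 3.62 ± 0.12 (adjusted p = 1.48e-12), Adig by 3.50 ± 0.20 (adjusted p = 1.16e-09) and Retn by 3.38 ± 0.11 (adjusted p = 2.33e-12). Adrb3, the β3-adrenergic receptor through which noradrenaline drives lipolysis and heat production, was higher by 3.10 ± 0.31 (adjusted p = 2.32e-06). Acvr1c, the activin receptor ALK7 of adipocytes, was higher by 3.73 ± 0.79 (adjusted p = 0.00436) on 18 and 5 counts. Acvr1c stood at 0 and 0.0366 CPM outside the fat-rich spots of normal sections 1 and 2. It could thus hardly have come out lower at the edge. With the main piece of tissue alone 7 of 19 were higher and 4 lower (5.33% of all genes were higher and 5.3% lower), with a median log2 difference of 0.19. Some of the list, among them Lpl, Cd36 and Dgat2, are abundant outside the fat-rich spots too, at 386 and 365, 246 and 230, and 132 and 121 CPM there in normal sections 1 and 2.

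The list of 12 further brown fat genes gave a mixed answer. Of the 8 tested, 5 were lower in ischemic sections by edgeR, where 29.7% of all genes were, and none higher. At the edge of normal sections Dio2 (the deiodinase that activates thyroid hormone) was higher by 3.48 ± 0.65 (adjusted p = 0.00148) and Ucp3 (an uncoupling protein homologue) by 2.85 ± 0.72 (adjusted p = 0.0144), on 20 and 13 and on 18 and 8 counts. Outside the fat-rich spots of normal sections 1 and 2 Dio2 stood at 0.183 and 0.329 CPM and Ucp3 at 0.0687 and 0.146 CPM. At these levels a lower call at the edge was hardly possible for Dio2 or Ucp3. Neither was among the genes lower in ischemic sections, where Dio2 had 15 and 13 and Ucp3 had 16 and 15 counts (log2 differences -0.19 and 0.31). Lower at the edge, as were 5.12% of all genes, were Cpt1b (the mitochondrial fatty acid gate), Fabp3 (a fatty acid carrier) and Ppargc1a (a coactivator of mitochondrial genes), by edgeR at adjusted p = 0.000472, 0.000159 and 0.0361. Each of them was also among the genes lower in ischemic sections. As a sum the list stood at 440 CPM in the fat-rich and 360 CPM in the other spots of normal section 1, and at 363 and 441 CPM in normal section 2. Fabp3 made up most of it and stood at 247 and 295 CPM outside the fat-rich spots. The 4 genes of the list too low to be tested were Elovl3 with 2 counts in normal section 1 and 0 in the other sections, Zic1 with 0 in all, Ebf2 with 4 and 4 in the normal and 0 in the ischemic sections, and Otop1 with 9 and 3 against 0 and 1. Otop1, a proton channel, stood at 10.2 and 9.16 CPM in the fat-rich spots and at 0 CPM in the other spots of normal sections 1 and 2.

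The decline away from fat differed between members. Cfd fell from 10691 and 8186 CPM in fat-rich spots to 327 and 346 CPM at 1 step, 77.8 and 162 CPM at 2 steps, and 2.27 and 1.91 CPM beyond 10 steps in normal sections 1 and 2. Car3 fell from 3819 and 2801 CPM to 148 and 200 CPM at 1 step. In normal section 1 it then stood at 27.8 CPM at 2 steps and 45.4 CPM beyond 10 steps, and in normal section 2 it declined further through 151 CPM at 2 steps to 33.5 CPM beyond 10 steps. There were 0.357 and 0.342 Car3 counts per Cfd count in fat-rich spots and 20 and 17.5 beyond 10 steps, so the counts of these genes were not in 1 ratio across the kidney. Fabp4 fell from 9375 and 8378 CPM to 384 and 503 CPM at 1 step and to 128 and 185 CPM beyond 10 steps.

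**Figure D4:**
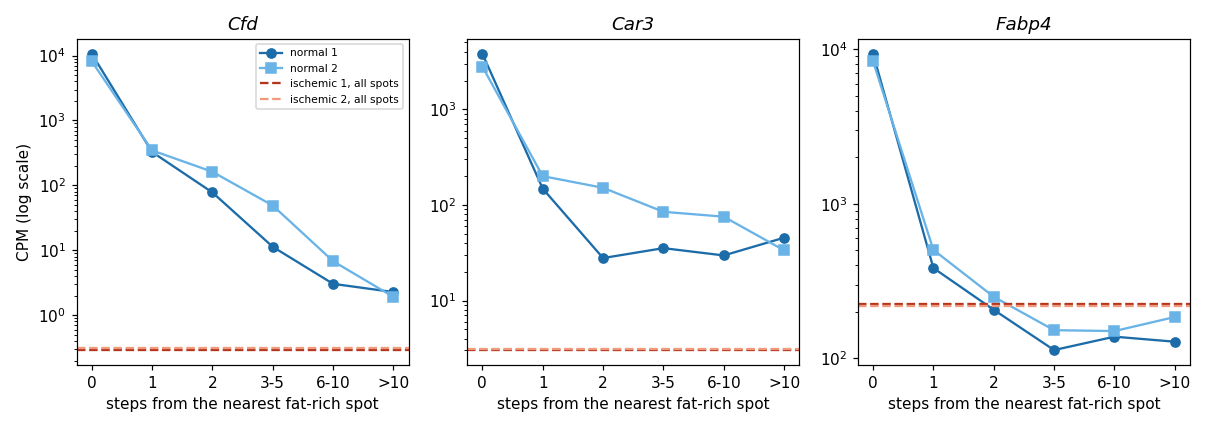
Levels of Cfd, Car3 and Fabp4 in spots at increasing distance from the nearest fat-rich spot in normal sections 1 and 2, as CPM on a log axis, with the whole ischemic sections as dashed lines and no error bars. Beyond 10 steps Cfd (2.27 and 1.91 CPM) and Car3 (45.4 and 33.5 CPM) stayed above the ischemic sections, while Fabp4 (128 and 185 CPM) lay below them.

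Outside the fat-rich spots Ucp1, Cidea and Plin1 of normal sections lay near their ischemic levels. Ucp1 stood at 0.0917 and 0.0732 CPM there in normal sections 1 and 2 against 0.0644 and 0.154 CPM in ischemic sections 1 and 2, Cidea at 0.321 and 0.439 CPM against 0.483 and 0.27 CPM, and Plin1 at 0.137 and 0.22 CPM against 0.322 and 0.27 CPM. Adipoq stood at 0.39 and 0.293 CPM against 0.0966 and 0.116 CPM, on 17 and 8 against 3 and 3 counts. Ucp1 and Cidea overlapped between conditions, Plin1 was lower and Adipoq higher in the normal sections, on at most 17 counts each. Since spots were left out for holding these very genes, the values outside are low by construction.

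Cfd and Cox8b kept a gap there, at 6.35 and 6.95 against 0.29 and 0.308 CPM and at 0.39 and 0.476 against 0 and 0.0385 CPM, on 17 and 13 against 0 and 1 Cox8b counts. Car3 kept a gap too, at 42.5 and 39.4 CPM outside fat-rich spots of normal sections against 3.03 and 3.08 CPM in ischemic sections. Fat-rich spots held 64.6% and 46% of the Car3 counts of normal sections 1 and 2, so much of its RNA lay elsewhere. Fabp4 stood at 132 and 185 CPM there against 226 and 218 CPM, lower than in ischemic sections, and also with TMM scaling, at 159 and 185 CPM against 207 and 197 CPM. The direction of Fabp4 between conditions therefore turned once the fat-rich spots were left out.

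Car3 and Fabp4 had opposite gradients with depth in the ischemic sections. Car3 stood at 8.82 and 10.4 CPM in the outermost layer of spots of ischemic sections 1 and 2 and at 1.26 and 1.24 CPM in the eighth layer and deeper. Fabp4 stood at 152 and 181 CPM in the outermost layer and at 281 and 254 CPM in the deepest. More than 5 steps away from any fat-rich spot, the normal sections had the same order, with Car3 at 91.6 and 61.3 CPM in edge and 39 and 33.3 CPM in interior spots, and Fabp4 at 80.7 and 133 CPM against 133 and 189 CPM.

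Away from fat, Fabp4 went weakly with endothelial genes across spots, with correlations of 0.32, 0.27, 0.33 and 0.26 in normal sections 1 and 2 and ischemic sections 1 and 2 over 2280, 2526, 2401 and 2613 spots. Its correlations with macrophage genes were 0.17, 0.13, 0.25 and 0.21, and with genes of tubules and podocytes 0.22, 0.28, 0.30 and 0.21, so no list stood clearly apart. Of the 10 endothelial genes 5 were higher and 1 lower in ischemic sections, where 31% of all genes were higher and 29.7% lower. Their sums were 746 and 803 CPM against 459 and 606 CPM. Of the 6 macrophage genes 4 were lower. Of the 5 tubule and podocyte genes 4 were lower, with sums of 3295 and 3462 CPM against 5513 and 6094 CPM. At the edge of normal sections none of the endothelial or macrophage genes was higher, where 5.51% of all genes were. Among 12166 genes, those most like Fabp4 across ischemic spots were Mt1 (0.39 and 0.29), Umod, Mt2, Ifitm3 and Acta2, of which 0 recurred with raw counts. Those most like Car3 there were Slc5a2 (0.22 and 0.22), Slc34a1 (0.22 and 0.20), Spp2, Chrna4 and Gatm, of which 3 recurred. With the summed tubule and podocyte genes Car3 had correlations of -0.03 and -0.01 in ischemic sections 1 and 2. The part of endothelium, macrophages, tubules or podocytes in the level of Fabp4 or Car3 was not tested.

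**Figure D5:**
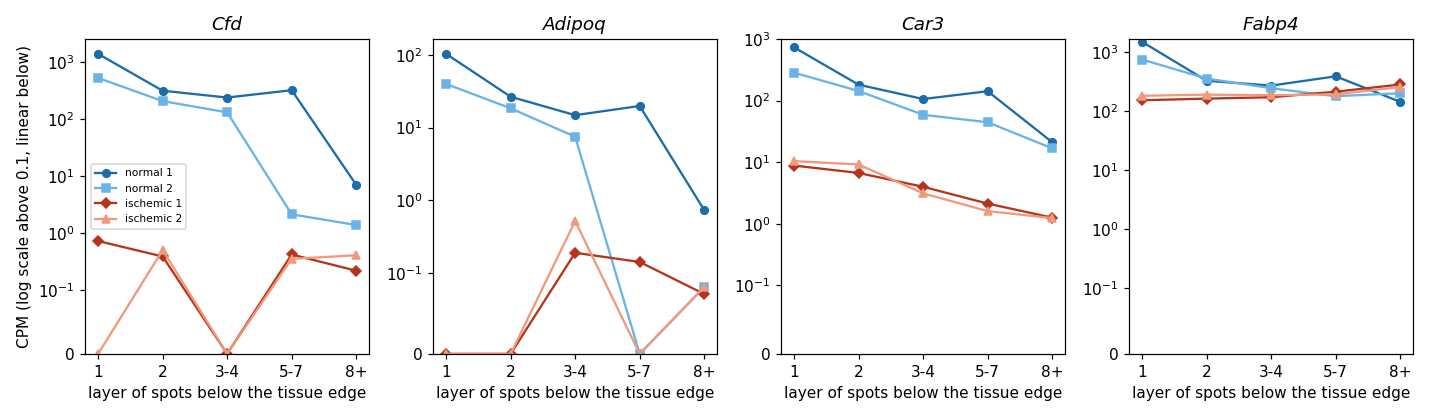
Levels of Cfd, Adipoq, Car3 and Fabp4 by layer of spots counted inwards from the tissue edge in each section, as CPM on an axis that is logarithmic above 0.1 and linear below, with no error bars. All 4 genes peak in the outermost layer of normal sections, Car3 also declines inwards in ischemic sections (8.82 and 10.4 to 1.26 and 1.24 CPM), and Fabp4 rises inwards there (152 and 181 to 281 and 254 CPM).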

How the data were processed

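RNA of 4 kidney sections was measured with Visium. The authors ran Space Ranger (version 1.3.0 per the file headers) on reads aligned to mm10 (per the labels). What they deposited are raw UMI counts of each gene in each spot under tissue, without normalization. No source used here states the annotation release. Depth per section is given above, and counting error is the only error the intervals cover.

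The members and all 11 gene lists were chosen with earlier results of these data known. Conditions came from the sample labels, and 2 sections per condition were used. Counts were summed per section, or per section over edge and interior spots, and tested with edgeR 4.0.16 in R 4.3.3 (quasi-likelihood test after filterByExpr and TMM scaling, with p-values adjusted over all genes by Benjamini-Hochberg at a threshold of 0.05). The edge model had a block for each section and an edge term for each condition. Gaps in the tissue under 20 spots were taken as holes, and neighbours beyond the array frame were not counted. Barcodes mark array positions, and 1490 of them lay under tissue in all 4 sections, so they are not shared cells. Patches were at least 3 adjacent fat-rich spots, and distances were steps over the array. Likeness was the correlation of log-transformed counts per 10000 among genes with at least 50 counts in each section of the condition named. Named genes were the 8 members, up to 6 genes past the edge threshold per list, and the 10 genes most like the members in normal sections. The 5 genes most like Fabp4 in each condition, and like Car3 in ischemic sections, were named too. Others named, among them Lpl, Cd36, Dgat2, Lipe, Pnpla2, Mgll, Cebpa, Elovl3, Zic1, Ebf2, Otop1, Acta1, Myh4, Star, other adrenal genes and Lrrn4, were chosen after their values were seen. DESeq2 1.42.0, other scalings, filters, edges and left-out sections were the alternatives. Descriptions used Python 3.11.15, NumPy 2.4.6 and SciPy 1.17.1, and figures matplotlib 3.10.9. On simulated data with 200 genes changed 3-fold, edgeR recovered 198 of 200 between sections (15164 genes, 8 false calls) and 185 of 200 at the edge (14530 genes, 11 false calls). The simulated sums were independent, with 1 fixed spread for all genes, and only well-counted genes were changed. In the data 9279 genes passed between conditions, and most members had few ischemic counts. The simulated rates therefore need not hold for these data.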

Additional observations from a re-analysis of the deposited data

Results flagged for a closer look

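Of the members with at least 10 counts in every section (Car3 and Fabp4), Fabp4 had edge differences of opposite sign in the 2 conditions. In the normal sections the log2 of edge over interior CPM was 2.74 for section 1 and 1.77 for section 2, while ischemic section 1 had -0.61 and ischemic section 2 had -0.30, so the mean of the normal sections exceeded that of the ischemic sections by 2.71. Both sections of a condition went the same way, which the rule for this flag required, and the difference between conditions itself was not tested. More than 5 steps from fat-rich spots the normal sections had less Fabp4 at the edge than inside, at 80.7 against 133 CPM and 133 against 189 CPM.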

How the results depend on the processing

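All 8 members stayed higher at the edge of normal sections under the 11 alternatives that kept all tissue, with adjusted p of at most 0.00209 (Plin1). Using only the main piece of tissue, chosen after seeing the data, turned Ucp1 to -1.18 and left 7 of 8. The count of genes past the threshold at the edge fell from 1555 to 617 with DESeq2 and to 715 with no replicate block, that is, without the section as a block, and ran from 1125 to 1511 without 1 section each. The mean share of member counts in edge spots was 42.5%, and became 50% with small holes as outside, 53.2% with the outer 2 layers, 43.2% with frame spots as edge and 24% in the main piece alone. Without 1 normal section it was 42% to 43%. Spots with at least 2 members averaged 126 per normal section, and 71.5 from 2 UMIs on, 67 after thinning, 70 for at least 3 members, and 88 to 164 without 1 normal section. Of the 10 genes most like the members, raw counts shared 6. Fat-rich spots averaged 62.5 per normal section at a limit of 10 UMIs and 75.5 at 5, a limit added later. Between conditions 9279 genes passed, 7633 with DESeq2, 9168 with RLE, 10196 with no filter, and 6493 to 10877 without 1 section. A block on the replicate number of the titles gave 10089. Same-numbered sections had a correlation of deviations of 0.162, but with 2 sections per condition this is 1 value and shows no pairing, and the labels give none, so the numbers were not used to pair sections. The log2 difference of Fabp4 between conditions was -0.74 and ran from -0.91 to -0.44, and that of Cox8b was -9.20 and moved to -8.07 without ischemic section 1. Without normal section 1 the log2 differences of the 7 other than Fabp4 became smaller in size and kept their direction, as given above. Without ischemic section 2 Cox8b had no ischemic count and gave no value. The causes of these shifts were not tested.

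In the ischemic sections 6 members had 0 to 15 counts each per section, and their edge values there rest on at most 2 counts, while normal section 2, with the lowest median depth per spot, held 35 to 2870. Each condition had 2 sections of unknown mice.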
